A study of Mus musculus with 2 samples.

Results

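The cells described here are dividing cells that carry RNA of the roof plate genes Wnt1, Rspo3 and Msx1. They were found in day 9 cultures of MM13 mouse embryonic stem cells, differentiated toward dorsal spinal cord and profiled with 10x Genomics Chromium 3′ version 3 chemistry. One culture had received retinoic acid (RA) with bone morphogenetic protein 4 (RA+BMP4) and the other RA alone. Both groups are the same line at the same day and differ in the labels only by BMP4. Each group is 1 library, so no replicate error exists, no difference was tested, and every comparison is between these libraries. Brackets hold 95% intervals that cover counting error only.

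A cell was kept with at least 1000 genes and at most 10% mitochondrial unique molecular identifiers (UMIs). It was a member with at least 1 UMI of Wnt1 or Rspo3, at least 2 of Msx1, none of Olig3, fewer than 2 of Cp, fewer than 5 of Col3a1 and at least 3 of Top2a, Mki67 and Cenpf summed. In all 770 of 14688 kept cells were members, 585 of 8650 in RA+BMP4 and 185 of 6038 in RA. Members were thus chosen by the measured UMIs of those 9 genes, whose levels are a description. Cells that met the rule but had fewer than 3 UMIs of the cycle genes, 1210 in RA+BMP4 and 174 in RA, are called non-cycling cells below. Kept cells with Olig3 and at least 3 UMIs of the cycle genes, 339 in RA+BMP4 and 180 in RA, are called cycling Olig3 cells. Neurons here are kept cells with at least 5 UMIs of Stmn2 and none of the cycle genes, and Col3a1 cells are those with at least 5 UMIs of Col3a1.

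The roof plate is the strip of glia-like cells at the dorsal midline of the neural tube. It releases Wnt and BMP ligands that pattern the dorsal progenitors beside it, and R-spondins, which strengthen Wnt signals by keeping Wnt receptors at the cell surface. In the embryo BMP signals induce the roof plate through Msx and Lmx1a factors, and its cells are known to leave the cell cycle early. The dorsal midline also takes in dividing precursors, and Wnt1 and Wnt3a are known to promote division of dorsal progenitors.

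Members carried the progenitor and dorsal midline genes but not a complete roof plate set. Summed over the 11 roof plate genes that the rule did not use, members held 317 CPM (UMI counts scaled to 1000000 per group of cells) in RA+BMP4 and 251 CPM in RA, against 79.5 and 86.7 CPM in neurons of the same libraries. For members at the equal depth defined below, the sums were 342 CPM in RA+BMP4 and 364 CPM in RA, so the order of the libraries was reversed. Non-cycling cells held more than members, at 403 and 420 CPM. Members were also deeper, with median UMIs of 13596 against 9971 in non-cycling cells of RA+BMP4 and 20845 against 13462 in RA. Minima set in UMIs ask for higher CPM in shallower cells, and the part of depth in this gap was not tested. Without cells rich in pluripotency genes, defined below, members had no gene at least 2-fold higher than cycling Olig3 cells in both libraries. Over all 14 genes the sums of members were 1317 and 797 CPM, of which Msx1, Wnt1 and Rspo3, required by the rule, gave 75.9% and 68.5%. Gdf7, the BMP ligand that defines the roof plate and its lineage, was close to absent, with 26 UMIs over all RA+BMP4 members (2.91 CPM) and 3 UMIs over all RA members (0.66 CPM). Lmx1b, a roof plate factor, had 1.79 and 1.98 CPM. Pax3 (108 and 136 CPM) and Sox2 (264 and 249 CPM), factors of dividing neural progenitors that a mature roof plate is not known for, were well detected in RA+BMP4 and RA. The name roof plate-like therefore rests on Msx1, Wnt1, Rspo3 and Lmx1a, 3 of which the rule used, and the members are called here cycling Wnt1/Rspo3/Msx1 cells.

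Markers of most other cells were low in both libraries. Neuron genes summed to 484 CPM in RA+BMP4 members and 562 CPM in RA members, against 8457 and 9549 CPM in neurons. Mesenchyme genes summed to 139 and 85.2 CPM, against 2813 and 3233 CPM in Col3a1 cells. The neuron list includes Stmn2, which chose the neurons. The mesenchyme list includes Col3a1, which chose the Col3a1 cells and was capped in members. Part of both gaps was therefore fixed by these choices. The dorsal midline epithelium list, given next, includes Cp, which the rule also capped in members. The 7 floor plate and ventral genes summed to 0.670 and 1.10 CPM, with Shh and Olig2 at 0 in both. The 8 genes of the dorsal midline epithelium list summed to 149 CPM in RA+BMP4 members and 181 CPM in RA members, or 161 and 283 CPM at the equal depth defined below, against 9.18 and 9.41 CPM in neurons, with Aqp1 at 0 in members of both. Pluripotency genes were higher in RA members, at 235 CPM in RA+BMP4 members and 707 CPM in RA members. They came from a few deep cells with 20 or more UMIs of Pou5f1, Dppa5a, L1td1 and Zfp42 summed, a limit set after the values were seen. Such cells were 8 of 585 RA+BMP4 members with 4.20% of the members' UMIs, and 9 of 185 RA members with 12.4%. Without them the pluripotency genes summed to 17.3 and 25.8 CPM. Results that rest on them are given with and without them.

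The RA library was read more deeply, which bears on every rule set in UMIs. Members had a median of 13596 UMIs and 4289 genes in RA+BMP4 and 20845 UMIs and 5047 genes in RA, and median mitochondrial shares of 3.89% and 5.50%. Called doublets were 30 members (5.13%) in RA+BMP4 and 11 (5.95%) in RA, against 3.47% and 2.29% of kept cells. The libraries shared 43 barcodes, and no barcode was a member in both. A second version of the rule met its minima after each cell had been thinned to 5000 UMIs, with the upper limits at full depth, and is called members at equal depth. It left 253 RA+BMP4 cells and 39 RA cells and was added after the data were seen.

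Within the rule the libraries differed in how the genes combined. The median member had 6 UMIs of Msx1 in RA+BMP4 and 5 in RA, 2 and 2 of Wnt1, and 3 and 1 of Rspo3. Both Wnt1 and Rspo3 were present in 385 of the RA+BMP4 members and 95 of the RA members, Wnt1 without Rspo3 in 82 and 57, and Rspo3 without Wnt1 in 118 and 33. The cycle genes summed to a median of 22 UMIs in RA+BMP4 and 25 in RA, with ranges of 3 to 249 and 3 to 277. The limit of 3 UMIs cut through a continuous range. Cells just outside it, with 1 or 2 cycle UMIs, held 1134 CPM of the G2 and M phase genes in RA+BMP4 and 1125 CPM in RA, members with 3 or 4 held 1896 and 1874 CPM, and members with 10 or more held 13439 and 9633 CPM. At the Msx1 limit, cycling cells with 2 UMIs of Msx1 held 34.8 CPM of the R-spondin Rspo1 in RA+BMP4 and 34.0 CPM in RA, and those with 1 UMI, just outside, held 19.1 and 15.2 CPM.

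Msx1, a homeobox target of BMP (chromosome 5, 37820485 to 37824583, GRCm38), was the highest roof plate gene, at 532 CPM [517 to 548] in RA+BMP4 members and 304 CPM [288 to 321] in RA members. Wnt1 (chromosome 15, 98789857 to 98793837) had 216 CPM [206 to 226] and 139 CPM [128 to 150], and Rspo3 (chromosome 10, 29452416 to 29535867) had 251 CPM [241 to 262] and 103 CPM [93.7 to 113]. Of the roof plate genes the rule did not use, Lmx1a, which specifies the roof plate, had 51.8 CPM in RA+BMP4 and 31.6 CPM in RA. Wnt3a had 29.5 and 22.2 CPM, Rspo1 71.6 and 78.4 CPM, and Bmp6 50.2 and 39.1 CPM. Bmp4 itself was low, at 7.26 and 12.3 CPM, as was Bmp7 at 12.5 and 14.5 CPM. Among single cells thinned to 5000 UMIs, Lmx1a was found in 23.6% of RA+BMP4 members and 19.6% of RA members, against 1.5% and 0.3% of neurons, which serve as the background of free RNA.

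**Figure D1:**
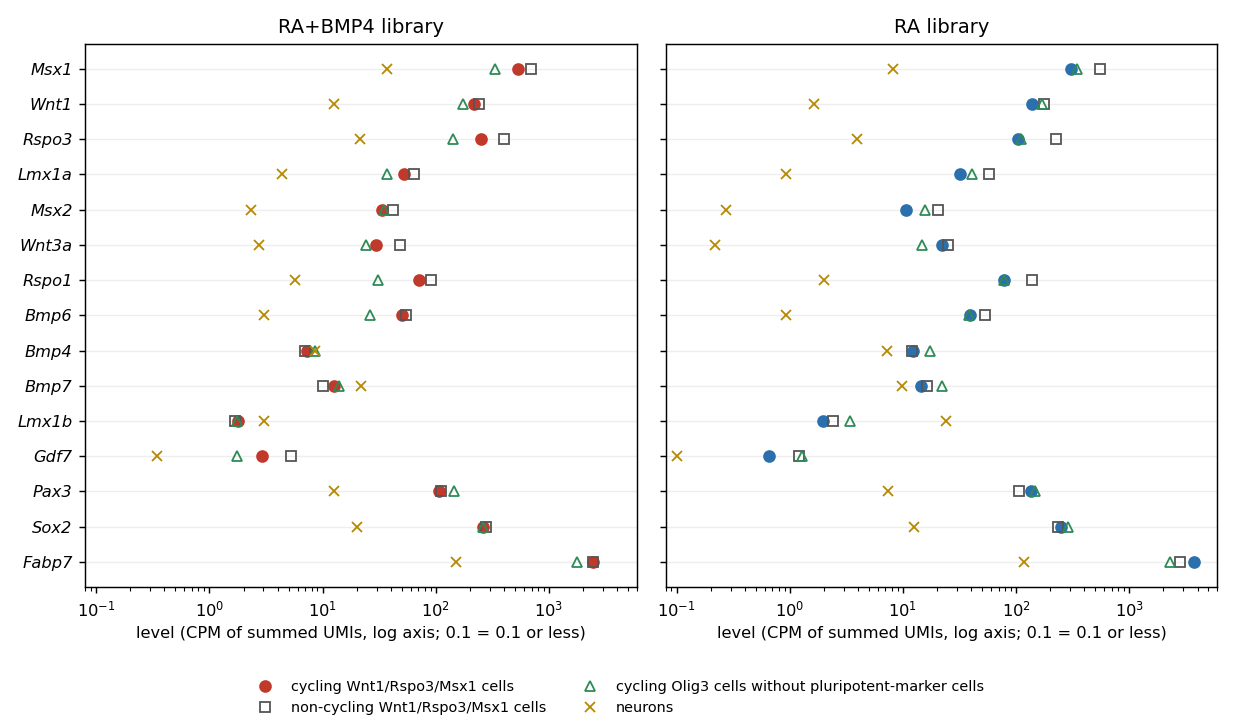
Level in CPM of summed UMIs (log axis) of roof plate and progenitor genes in members (filled circles), non-cycling Wnt1/Rspo3/Msx1 cells (squares), cycling Olig3 cells without pluripotent-marker cells (triangles) and neurons (crosses), with RA+BMP4 in the left panel and RA in the right. Msx1, Wnt1, Rspo3, Lmx1a and Rspo1 lie far above the neurons, Gdf7 lies at 2.91 CPM or lower in members, and Fabp7 is the highest gene shown. With pluripotent-marker cells left out of both, no gene compared was at least 2-fold higher in members than in cycling Olig3 cells in both libraries.

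Set against the non-cycling cells of the same library, members had far more genes higher than lower, among them nearly all listed genes of the division cycle. A gene was called past the fold with at least 20 CPM on 1 side and a ratio of 2 or more in the same direction in both libraries. Of 6802 genes compared, 306 were higher in members (4.5%) and 14 were lower (0.206%), and since the rule chose members by cycle genes these counts are read only as a description. Without pluripotent-marker cells the counts were 306 (4.49%) and 12 (0.176%) of 6808. The cycle lists and rule genes made up 97 of the 306, and 209 lay outside them. In the lists, 39 of 42 S phase genes, 45 of 47 G2 and M phase genes and all 10 replication-dependent histone genes compared were higher. Their median log2 ratios were 2.36 in RA+BMP4 and 2.30 in RA for S phase, 4.91 and 4.25 for G2 and M, and 3.07 and 3.37 for the histones. None of the roof plate genes passed the fold, and their median log2 ratio was -0.35 in RA+BMP4 and -0.86 in RA. Members were deeper than non-cycling cells, as given above, and the part of depth in these medians was not tested.

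The largest ratios over non-cycling cells belonged to genes of sister chromatid cohesion, spindle and kinetochore. Esco2, an acetyltransferase of cohesin, had 102 CPM in RA+BMP4 members against 1.82 CPM in non-cycling cells, and 76.7 against 1.21 CPM in RA. Aspm, a spindle pole protein whose loss gives microcephaly, had 164 against 3.01 CPM in RA+BMP4 and 115 against 2.02 CPM in RA. Plk1, Bub1b, Ndc80, Aurka and Ckap2l followed, with the rule genes Top2a (1272 against 24.9 CPM in RA+BMP4, 793 against 19.4 CPM in RA), Cenpf (947 against 17.6 and 660 against 16.2 CPM) and Mki67 (575 against 14.4 and 436 against 10.5 CPM). The genes lower in members were led by Myh8, a myosin heavy chain, with 26.8 against 70.1 CPM in RA+BMP4 and 19.1 against 105 CPM in RA. Lrrn2, Aldoc, Nrxn3, Syt6, Ppm1h, Brinp2 and Hist3h2a were also among the 10 lowest. The cholesterol exporter Abca1 had 34.4 against 85.1 CPM in RA+BMP4 and 27.0 against 71.2 CPM in RA, and Stra6, the receptor that takes up retinol, 32.9 against 69.6 CPM and 18.5 against 51.4 CPM.

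Many G2 and M phase promoters carry a CHR element (TTTGAA), bound by the DREAM and MMB complexes, and CCAAT boxes, bound by NF-Y, while S phase promoters carry E2F sites. The stretches below, the 120 bases before the RefSeq start (GRCm38.p6), belong to the genes at the top of the member ratios or to the rule, and were picked to show promoters with both elements, with 1 kind and with neither. They are read on the gene's own strand, and capitals mark a CHR or a CCAAT in either orientation (TTCAAA and ATTGG are the reverse).
Aspm (chr1:139454653-139454772, plus strand): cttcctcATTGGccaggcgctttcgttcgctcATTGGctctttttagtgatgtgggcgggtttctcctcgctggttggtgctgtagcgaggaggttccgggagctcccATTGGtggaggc
Top2a (chr11:99024190-99024309, minus strand): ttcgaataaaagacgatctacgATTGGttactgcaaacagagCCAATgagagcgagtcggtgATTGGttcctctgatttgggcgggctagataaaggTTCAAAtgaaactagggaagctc
Mki67 (chr7:135716380-135716499, minus strand): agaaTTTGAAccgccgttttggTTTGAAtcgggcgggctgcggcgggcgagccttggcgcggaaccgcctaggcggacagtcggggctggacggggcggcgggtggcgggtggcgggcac
Aurka (chr2:172370571-172370690, minus strand): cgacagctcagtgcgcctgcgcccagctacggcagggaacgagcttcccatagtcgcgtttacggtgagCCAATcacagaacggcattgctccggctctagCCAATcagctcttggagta
Ckap2l (chr2:129297213-129297332, minus strand): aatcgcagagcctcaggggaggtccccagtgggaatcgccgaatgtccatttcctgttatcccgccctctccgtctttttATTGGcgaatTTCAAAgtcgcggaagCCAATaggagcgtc
Ndc80 (chr17:71526858-71526977, minus strand): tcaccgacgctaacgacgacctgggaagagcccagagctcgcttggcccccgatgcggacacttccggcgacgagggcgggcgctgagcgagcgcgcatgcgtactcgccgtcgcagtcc

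Top2a and Ckap2l hold both kinds of element, Aspm and Aurka hold CCAAT alone, Mki67 holds CHR alone, and Ndc80 holds neither in this window. Plk1, Bub1b and the rule gene Cenpf, not printed, hold 1 CCAAT each and no CHR. In the 200 bases before the start and on both strands, CCAAT was found in 31 of the 40 G2 and M phase genes with a promoter in the table (77.5%), against 30.02% of all 27025 promoters, and in 21 of 30 S phase promoters (70%). CHR was found in 13 of the 40 G2 and M promoters (32.5%) and 4 of the 30 S phase promoters (13.3%), against 12.7% of all promoters, and both together in 12 (30%) and 3 (10%), against 3.83%. E2F letters (TTTCCCGC, TTTGGCGC, TTTCGCGC or TTTGCCGC) were in 8 of 30 S phase promoters (26.7%) and 1 of 40 G2 and M promoters (2.5%), against 1.63% of all promoters. The 11 roof plate promoters held CCAAT in 3 (27.3%), CHR in 4 (36.4%) and both together in 2 (18.2%), so CHR was not confined to the cycle lists. A match is a description of letters and not of binding.

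Members were spread over the division cycle. Among members chosen at full depth, a larger share of those in RA+BMP4 was rich in G2 and M phase RNA. In cells thinned to 5000 UMIs, the median member held 44 UMIs of the G2 and M list in RA+BMP4 and 26 in RA, 12 and 16 of the S phase list, and 5 and 3 of the histone list. Non-cycling cells held 5 and 5 UMIs of the G2 and M list and neurons 3 and 3. At equal depth the medians of members were 64 and 47 UMIs for G2 and M, and 13 and 16 for S phase. Ranges were then set after the values were seen, at 20 UMIs of the S list and 25 of the G2 and M list, and they are ranges of a continuous score. The S range held 206 of 576 RA+BMP4 members (35.8%) and 80 of 184 RA members (43.5%). Below it in S but past the G2 and M limit were 234 RA+BMP4 members (40.6%) and 50 RA members (27.2%), and 136 (23.6%) and 54 (29.3%) were under both limits. At equal depth the G2 and M range held 132 of 253 RA+BMP4 cells (52.2% [45.8 to 58.5]) and 16 of 39 RA cells (41.0% [25.6 to 57.9]). These intervals overlap, and no difference in this share was detectable at that depth. In RA+BMP4, 49 members lay within 3 UMIs of the S limit and 26 within 5 UMIs of the G2 and M limit, and in RA 28 and 12.

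At full depth some genes had the same order along the cycle in both libraries and others did not. Ccne1, the cyclin of the entry into S phase and 1 of the S list, had 138 CPM in S range members of RA+BMP4, 18.0 CPM in the G2 and M range and 23.4 CPM under both limits, and 124, 12.4 and 19.8 CPM in RA. At equal depth Ccne1 had 153, 20.1 and 13.3 CPM in RA+BMP4 and 96.5, 9.75 and 11.2 CPM in RA. Its highest level was again in the S range, but the order of the other ranges was not shared. Cdkn1c, outside both lists and a CDK inhibitor of cells that leave the cycle, was highest under both limits, at 462 CPM in RA+BMP4 and 721 CPM in RA, against 266 and 339 CPM in the S range. That order was not kept at equal depth, where Cdkn1c had 307 CPM in the S range, 344 CPM in the G2 and M range and 210 CPM under both limits (29 cells) in RA+BMP4, and 399, 695 and 626 CPM (6 cells) in RA. Rspo1 had 95.1 CPM in the S range, 45.8 CPM in the G2 and M range and 74.6 CPM under both in RA+BMP4, and 96.1, 51.3 and 71.8 CPM in RA. At equal depth it had 108, 44.4 and 39.9 CPM in RA+BMP4 and 150, 65.0 and 89.5 CPM in RA. Rspo1 was then still highest in the S range of both, but the rest of its order was not shared. Hes5, a Notch target, had 30.8, 29.8 and 20.4 CPM in the same ranges of RA+BMP4 and 31.7, 75.1 and 85.9 CPM in RA, and Fabp7, a radial glia gene, 2502, 2416 and 2292 CPM in RA+BMP4 and 3778, 4503 and 2939 CPM in RA, so for both the order differed between the libraries. The histone Hist1h1b, made in S phase, gave a further split, with 4 or more UMIs in 197 of 576 RA+BMP4 members (34.2%) and 58 of 184 RA members (31.5%). Those cells had median S list counts of 32 in RA+BMP4 and 35 in RA, against 8 and 10 in cells with no Hist1h1b UMI, and 38 of the 197 and 7 of the 58 lay below the S limit.

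**Figure D2:**
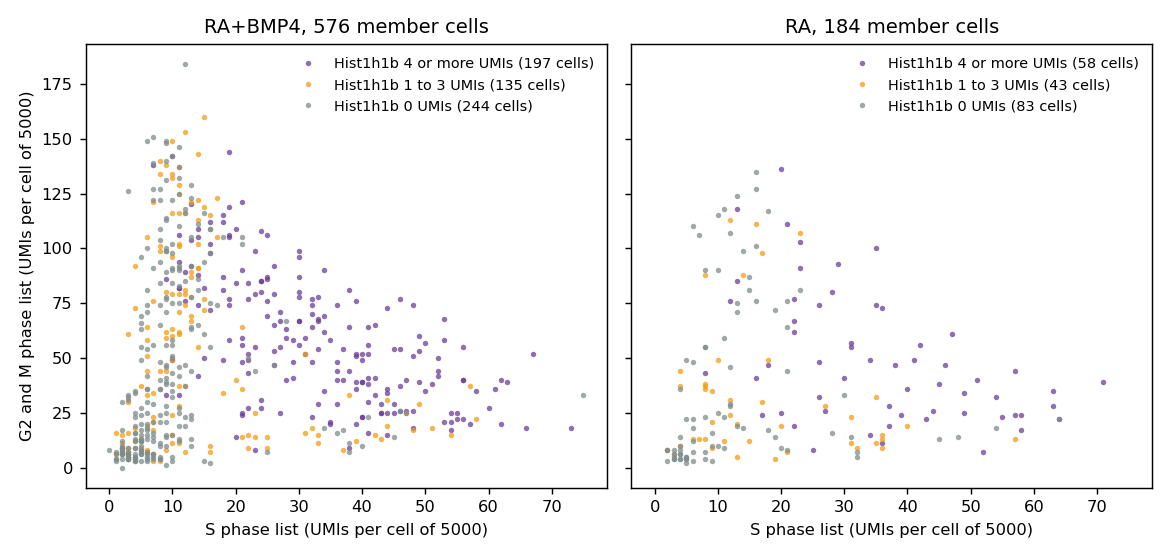
Each point is 1 member cell thinned to 5000 UMIs, RA+BMP4 in the left panel (576 cells) and RA in the right (184 cells), with UMIs of the S phase list on the horizontal axis and of the G2 and M phase list on the vertical axis, coloured by Hist1h1b UMIs. Of the cells with 4 or more Hist1h1b UMIs, 159 of 197 in RA+BMP4 and 51 of 58 in RA lie at 20 or more S list UMIs. The median G2 and M count of all members shown is 44 in RA+BMP4 and 26 in RA, and that of cells with 4 or more Hist1h1b UMIs is 54 and 41.

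Before the libraries are compared gene by gene, 1 feature that sets them apart has to be given. In both libraries the members fell into separate clouds by how much of their RNA came from chromosomes 8 and 11. Over all compared genes outside the lists, chromosome 8 gave about 4.3% of a cell's autosomal UMIs in one cloud and 6.0% in the other, and chromosome 11 about 9.8% or 13.5%. Most RA+BMP4 members lay in the cloud high for both and most RA members in the cloud low for both. With limits of 5.2% for chromosome 8 and 11% for chromosome 11, set after the values were seen, 416 of 585 RA+BMP4 members were high for both (71.1% [67.3 to 74.7]), against 42 of 185 RA members (22.7% [16.9 to 29.4]). Low for both were 96 RA+BMP4 members (16.4%) and 108 RA members (58.4%). High for chromosome 8 alone were 32 (5.47%) and 13 (7.03%), and high for chromosome 11 alone were 41 (7.01%) and 22 (11.9%). Few members lay near a limit: 23 in RA+BMP4 and 8 in RA within 0.2 points of the first, and 22 and 13 within 0.5 points of the second.

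**Figure D3:**
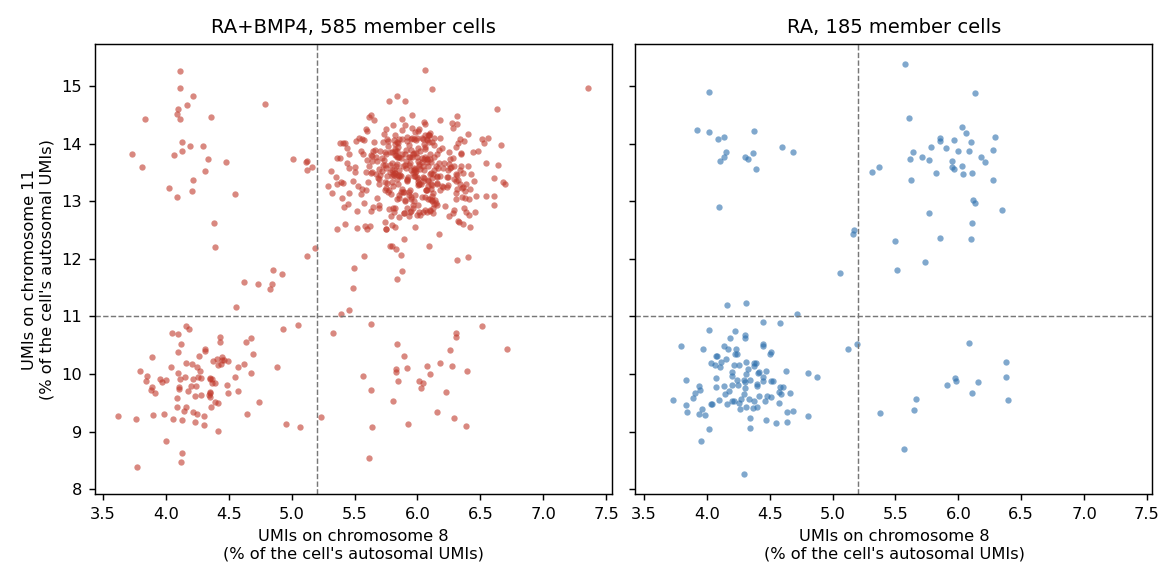
Each point is 1 member cell, RA+BMP4 in the left panel and RA in the right, placed by the percentage of its autosomal UMIs on chromosome 8 (horizontal) and chromosome 11 (vertical), with dashed lines at 5.2% and 11%. The upper right cloud holds 416 of 585 RA+BMP4 cells and 42 of 185 RA cells, and the lower left cloud 96 and 108.

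The same clouds were seen outside the members. Of the non-cycling cells, 73.1% in RA+BMP4 and 9.77% in RA were high for both chromosomes, and of all kept cells 66.3% and 29.9%. Within the members of a library, without pluripotent-marker cells, 405 of 422 chromosome 8 genes and 603 of 619 chromosome 11 genes were higher in the high cells than in the low cells of RA+BMP4. The corresponding counts in RA were 380 of 417 and 553 of 595. The median log2 ratio of the chromosome 8 genes was 0.52 in RA+BMP4 and 0.54 in RA, and that of the chromosome 11 genes 0.50 and 0.48, against -0.04 and -0.08 on the other autosomes. The split itself used these 2 chromosomes, so these values are a description. Other parts of the genome moved with the split. Chromosomes 1 and 14 had entered it through the total of autosomal UMIs, so their values are not independent of it, while X had no part in it. Chromosome 1 genes were lower in the high cells for 322 of 401 genes in RA+BMP4 and 317 of 406 in RA, with medians of -0.23 and -0.24. Chromosome 14 genes were lower for 195 of 253 in RA+BMP4 and 194 of 253 in RA, with medians of -0.18 and -0.22. The medians of the 15 autosomes other than 1, 8, 11 and 14 lay between -0.05 and 0.01 in RA+BMP4 and between -0.09 and -0.03 in RA. On chromosome X, all 24 genes past 160 Mb were lower in the high cells of RA+BMP4 and 23 of 24 in RA, with median log2 ratios of -0.94 and -1.05. Mouse embryonic stem cells are known to gain whole chromosomes in culture, 8 and 11 among them, but DNA copy number was not measured here.

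Single genes elsewhere in the genome also went with the split. Past the fold in both libraries, 36 of 6603 genes were higher in members high for both chromosomes (0.545%) and 29 were lower (0.439%). Of the higher genes 19 lay on chromosomes 8 and 11, and of the lower genes 19 lay on X. The genes given next were picked out after their values were seen and stand for no group. H19, an imprinted long noncoding RNA on chromosome 7 (142575529 to 142578143), had 208 CPM in the high members of RA+BMP4 against 12.8 CPM in the low members, and 81.7 against 4.27 CPM in RA. Plagl1, an imprinted zinc finger gene on chromosome 10, had 103 against 6.39 CPM in RA+BMP4 and 111 against 13.3 CPM in RA. Grb10, an imprinted growth inhibitor on chromosome 11, went the other way to its chromosome, with 54.2 against 185 CPM in RA+BMP4 and 53.1 against 271 CPM in RA. These 3 genes split the members more sharply than they split the libraries.

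Of the 4 Wnt ligand and R-spondin genes compared outside the rule, 1 passed the fold higher in high members (Wnt3) and 1 lower (Rspo1). Wnt1, itself a gene of the rule, had 258 CPM in the high members of RA+BMP4 against 111 CPM in the low ones, and 243 against 105 CPM in RA. Within either cloud its levels in RA+BMP4 and RA were therefore close, with log2 ratios of 0.09 in high and 0.08 in low members, against 0.64 over all members. Rspo1 went the other way, with 60.5 CPM in the high members against 134 CPM in the low members of RA+BMP4 and 33.5 against 114 CPM in RA. Wif1, a secreted inhibitor of Wnts, had 12.7 against 52.5 CPM in RA+BMP4 and 8.86 against 40.3 CPM in RA. Wnt3, on chromosome 11, had 54.9 against 17.7 CPM and 67.9 against 18.96 CPM, and Gdf10, a BMP family ligand, 48.0 against 14.2 CPM and 99.4 against 32.2 CPM. Rspo3 did not go with the split, at 274 against 247 CPM in RA+BMP4 and 127 against 113 CPM in RA. In the non-cycling cells, which are other cells of the same cultures, H19 had 245 CPM in high cells against 20.1 CPM in low cells of RA+BMP4 and 187 against 2.40 CPM in RA, and Wnt1 265 against 142 CPM and 318 against 142 CPM.

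Markers of another dorsal cell type went with the split. Of the 8 genes of the dorsal midline epithelium list, the 2 with enough counts, Colec12 and Folr1, were both past the fold lower in high members. The scavenger receptor gene Colec12 had 86.9 CPM in high members against 192 CPM in low members of RA+BMP4, and 58.1 against 158 CPM in RA. The folate receptor gene Folr1 had 5.34 against 34.1 CPM and 6.89 against 20.4 CPM. The list summed to 104.8 CPM in high members against 242 CPM in low members of RA+BMP4, and to 70.8 against 194 CPM in RA, with Ttr and Aqp1 at 0 in all 4 groups. The part of such cells in the ratios above was not tested. Summed over the roof plate list, rule genes included, high and low members were close in RA+BMP4, at 1389 against 1329 CPM, and in RA they had 757 against 919 CPM. Neuron genes summed to 497 against 431 CPM in RA+BMP4 and 793 against 290 CPM in RA.

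With that split in view, the RA+BMP4 library held more members. They were 6.76% of kept cells [6.24 to 7.31] in RA+BMP4 and 3.06% [2.64 to 3.53] in RA, a ratio of 2.21. At 5000 UMIs per cell the ratio was 3.09 (3.96% and 1.28%), and for members at equal depth 4.71 (3.14% and 0.667%). Among cells high for both chromosomes, without pluripotent-marker cells, the shares were 7.32% and 2.30%, and among cells low for both 6.35% [5.15 to 7.72] and 3.64% [2.98 to 4.40]. The direction was thus the same in each cloud. All Wnt1/Rspo3/Msx1 cells, cycling or not, were 20.8% of kept cells in RA+BMP4 and 5.95% in RA.

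A smaller part of the Wnt1/Rspo3/Msx1 cells was cycling in RA+BMP4 at full depth: 32.6% [30.4 to 34.8] in RA+BMP4 and 51.5% [46.2 to 56.8] in RA. Once every cell was thinned to 5000 UMIs before the rule, the shares were 22.6% [20.4 to 24.9] and 24.2% [19.5 to 29.4], and no difference was detectable at that depth. Among all kept cells the cycling share was 24.8% in RA+BMP4 and 33.0% in RA, and 19.2% and 23.6% after thinning. Within the clouds and at full depth, 31.9% and 70.2% of the high cells and 34.4% and 45.5% of the low cells were cycling in RA+BMP4 and RA.

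Gene by gene, the members of both libraries were much alike. Taking genes at 20 CPM or more in either library, 52 of 6955 were past the fold higher in RA+BMP4 (0.748%) and 49 lower (0.705%), and the median log2 ratio of all genes was 0.08. Without pluripotent-marker cells the counts were 49 (0.706%) and 31 (0.447%) of 6942 genes. At equal depth they were 160 (2.25%) and 102 (1.43%) of 7124. Between members high for both chromosomes they were 149 (2.11%) and 69 (0.977%) of 7059, with only 40 RA cells behind them, and between members low for both 65 (0.946%) and 25 (0.364%) of 6872. Of the 52 and 49 genes called over all members, 21 and 6 were also called between low members, and 28 and 17 between high members.

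The chromosomes were visible in this comparison too. On chromosome 8, 366 of 407 genes were above 0 with a median log2 ratio of 0.27, and on chromosome 11, 540 of 608 genes with a median of 0.27, while the medians of the other autosomes lay between -0.06 and 0.10. Of the 608 chromosome 11 genes, 12 were past the fold higher (1.97%) and 3 lower, and of the 407 chromosome 8 genes 4 higher (0.983%) and 4 lower, so the count for chromosome 8 was near the 0.748% of all genes. Of the 242 genes of X none was higher and 11 were lower (4.55%): Dkc1, Trap1a, Shroom2, Ubqln2, Sat1, Mbtps2, Sh3kbp1, Nhs, Txlng, Ap1s2 and Trappc2. All 23 genes compared past 160 Mb of X were below 0, with a median of -0.67, and so were all 21 compared in non-cycling cells, with a median of -0.71. How far the makeup of the clouds accounts for single ratios was not tested, so the values within the clouds stand beside them below.

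Of the roof plate genes that the rule did not use, 6 were compared. In RA+BMP4 members 1 of them, Msx2, passed the fold upward, none passed downward and 5 were above 0, with a median log2 ratio of 0.45, or 0.37 without pluripotent-marker cells. At equal depth 8 could be compared, none passed upward, 1 passed downward (Bmp4, at -2.09) and 4 were above 0, with a median of 0.06. Between high members the median was 0.98 with 6 of 6 above 0, and between low members 0.28 with 5 of 6. With the rule genes Msx1, Wnt1 and Rspo3 included, 2 of 9 passed upward with a median of 0.64, and 0.33 at equal depth. Rspo3, used by the rule, had a log2 ratio of 1.29 over all members, 1.11 between high and 1.12 between low members. Msx2, a homeobox target of BMP that the rule did not use, had 33.7 CPM in RA+BMP4 and 10.5 CPM in RA, a log2 ratio of 1.68, which was 1.11 between high and 0.40 between low members. After thinning, Msx2 was found in 14.9% of RA+BMP4 members and 8.2% of RA members, against 0.67% and 0.07% of neurons. Lmx1a had a log2 ratio of 0.71, 1.10 between high and 0.62 between low members. Msx1 stood at 0.81, 1.39 and 0.59, and Rspo1 at -0.13, 0.86 and 0.24 in the same order. For Rspo1 the sign over all members was thus opposite to that inside each cloud.

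Apart from Msx2, direct readouts of BMP signalling differed little. Of 7 BMP response genes compared 1 passed the fold upward, against 0.748% of all genes, and 6 were above 0. The gene past the fold was Msx2, which was also the single roof plate gene outside the rule to pass above. The median log2 ratio of the 7 genes was 0.16, and the medians were 0.05 between high members and 0.08 between low members. Id1, an inhibitor of basic helix-loop-helix factors induced by BMP, had 304 CPM in RA+BMP4 and 197 CPM in RA, a log2 ratio of 0.62. It was 0.05 between high members (333 and 323 CPM) and 0.23 between low members (229 and 195 CPM). Id3 had 835 and 749 CPM, Bambi, a decoy receptor, 52.4 and 38.5 CPM, and Sostdc1, a secreted antagonist, 87.0 and 72.5 CPM, and none passed the fold. Of 8 BMP receptors and Smads compared none passed, with a median of 0.12.

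Of the Wnt targets compared, 1 of 5 passed upward and 1 downward, against 0.748% and 0.705% of all genes. Their median log2 ratio was 0.41, with 0.44 between high members and 0.04 between low members. Between low members 4 could be compared, none passed the fold and 2 were above 0, with Lef1 under the minimum of 20 CPM. Axin2, a feedback inhibitor that reads out Wnt signalling, had 192 CPM in RA+BMP4 and 96.0 CPM in RA, just under the fold. Its log2 ratio was 1.56 between high members and 0.63 between low members. It was found in 58.3% of RA+BMP4 members and 33.2% of RA members after thinning, and in 22.2% and 10.5% of neurons. Lef1, a factor that acts with beta-catenin, had 28.6 and 10.99 CPM, and its log2 ratio of 1.38 was 2.40 and 1.93 in the clouds. The cyclin gene Ccnd1, a Wnt target and driver of G1, was lower, at 34.0 and 87.9 CPM, with log2 ratios of -1.37 over all, -1.86 between high and -0.86 between low members. Wnt9a, a Wnt ligand on chromosome 11, had 28.7 and 8.35 CPM.

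Retinoic acid pathway genes lay on the higher side in RA+BMP4 members although both cultures had received RA, and 2 posterior Hox genes were past the fold. Of 9 retinoic acid pathway genes compared none passed the fold and 8 were above 0, with a median log2 ratio of 0.73, which was 0.64 without pluripotent-marker cells, 0.35 at equal depth, and 0.73 and 0.69 between high and low members. The receptor gene Rara had 138 CPM in RA+BMP4 and 70.1 CPM in RA, the retinoic acid carrier Crabp1 141 and 79.8 CPM, and its relative Crabp2 27.8 and 35.2 CPM. Crabp1 passed the fold within each cloud, with log2 ratios of 1.47 and 1.82. Of the Hox genes of groups 9 to 13, which mark thoracic and more caudal levels, 3 were compared. Hoxc9 (chromosome 15, 102976439 to 102985099) had 148 and 53.2 CPM and Hoxa9 23.8 and 10.1 CPM, both past the fold, and Hoxb9, on chromosome 11, 317 and 292 CPM. Hoxc9 had log2 ratios of 1.48 over all members, 1.39 between high and 0.85 between low members. It is no mark of these cells, since neurons held it in 74.0% of RA+BMP4 and 33.5% of RA cells, against 44.8% and 17.4% of members. The 9 compared genes of groups 1 to 5 had a median of 0.28 and the 6 of groups 6 to 8 of 0.27, and between low members both medians were under 0.10, at -0.08 and 0.05.

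Of the cycle lists, G2 and M phase lay on the higher side in RA+BMP4 with 1 gene past the fold, and S phase did not. Of 47 G2 and M genes compared, 47 were above 0, with a median log2 ratio of 0.52 and 1 past the fold. The median was 0.49 without pluripotent-marker cells, 0.34 at equal depth (43 of 48 above 0), and 0.63 and 0.32 between high and low members. In non-cycling cells it was -0.08. Those cells were chosen for few UMIs of the cycle genes, and members for at least 3. The value in non-cycling cells therefore cannot show that the shift is particular to members. Hmmr, a spindle protein, had 273 CPM in RA+BMP4 and 153 CPM in RA, Birc5, the survivin of the chromosomal passenger complex, 453 and 283 CPM, Ube2c, a ubiquitin carrier of mitotic exit, 574 and 407 CPM, and Cdk1 209 and 198 CPM. Gas2l3, which acts in cytokinesis, was past the fold at 45.6 and 22.0 CPM. Of 42 S phase genes none passed the fold and 13 were above 0, with a median of -0.11. The helicase subunits Mcm6 and Mcm3, which license origins, had 91.2 and 152 CPM, and 80.6 and 125 CPM. Of 11 histone genes compared 9 were above 0 with a median of 0.59 and none past the fold, and in non-cycling cells their median was 0.85. Of 16 G1 cyclins and CDK inhibitors 1 passed downward (Ccnd1), and Cdkn1c had 332 and 467 CPM.

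**Figure D4:**
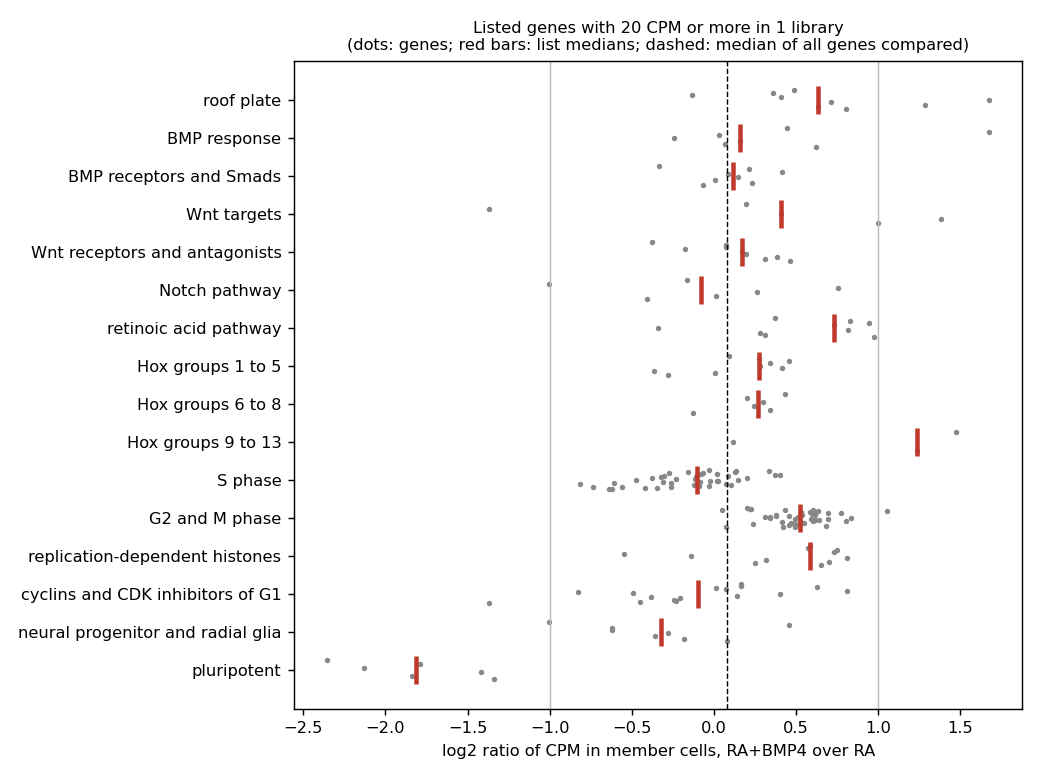
Each dot is a listed gene with 20 CPM or more in 1 library, placed by its log2 ratio of CPM in members, RA+BMP4 over RA, red bars are list medians and the dashed line is the median of all genes, 0.08. The G2 and M genes lie right of 0 with a median of 0.52, the retinoic acid pathway has a median of 0.73, and the pluripotent list lies at -1.81.

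Progenitor genes lay on the lower side in RA+BMP4 members. Of 8 neural progenitor and radial glia genes 1 passed downward and 2 were above 0, with a median log2 ratio of -0.32. That gene was Hes5, a Notch target, with 28.4 CPM in RA+BMP4 and 56.9 CPM in RA. It had a log2 ratio of -2.01 between high members but -0.38 between low members. Fabp7, a fatty acid carrier of radial glia and the most abundant of the list, had 2426 and 3733 CPM, and Nes 220 and 281 CPM. Hes1, another Notch target, had 78.2 and 46.4 CPM. All 4 dorsal progenitor genes compared were below 0, with a median of -0.50. Msx3, a homeobox gene of dorsal progenitors outside the roof plate, had 22.2 and 73.6 CPM, a log2 ratio of -1.73, and was past the fold in each cloud, at -2.53 and -2.40. It was found in 5.9% of RA+BMP4 and 18.5% of RA members after thinning.

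The highest ratios belonged to genes of varied roles. Ldb2 (chromosome 5, 44472132 to 44799680), a cofactor of LIM homeobox factors such as Lmx1a, had 33.5 CPM in RA+BMP4 members and 5.49 CPM in RA members, a log2 ratio of 2.61 that was 1.73 and 1.58 between high and low members. H19 had 149.5 and 29.7 CPM, and its ratio of 2.33 was 1.35 and 1.58 in the clouds. Gria1, a glutamate receptor subunit, had 28.9 and 6.59 CPM, Mfap2, a microfibril protein, 44.9 and 11.2 CPM, Neil3, a DNA glycosylase of dividing cells on chromosome 8, 52.96 and 19.99 CPM, and Snhg11, a noncoding RNA, 30.2 and 10.99 CPM. Ccdc130, also on chromosome 8, had 21.7 and 7.47 CPM. In non-cycling cells 24 of the 52 genes were past the fold in the same direction, and 45 of 52 had the same sign.

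Of the 10 lowest ratios, 5 were inside the fold once pluripotent-marker cells were left out. Levels were then low, and Spp1 and Tdgf1 were under the minimum of 20 CPM. The whole pluripotency list, which includes Tdgf1, L1td1 and Nanog, then summed to less than this minimum in RA+BMP4 members and little more in RA members. The ratios of these 3 genes without those cells therefore rest on few counts. Lefty1 and Tdgf1, genes of the Nodal pathway in pluripotent cells, had 12.6 CPM in RA+BMP4 against 66.3 CPM in RA, and 11.5 against 58.9 CPM. Their log2 ratios of -2.39 and -2.36 were -0.35 and 0.31 without those cells. Ndufa4l2 (1.45 and 22.2 CPM), Upp1 and L1td1 (19.9 and 87.2 CPM) were likewise at -0.43, -0.92 and -0.62 without them, and Nanog at -1.10. Nppc, Pou4f1 and Tagln were still past the fold without them, at -2.06, -1.85 and -2.65. Spp1, with 8.38 CPM in RA+BMP4 and 44.2 CPM in RA over all members, had 2.10 and 11.3 CPM without them, under the minimum of 20 CPM. Of the Tagln counts in RA members 83.9% came from 1 cell, and between members low for both chromosomes Tagln and Spp1 were on the other side of 0, at 1.21 and 1.00, the Spp1 value from 4 and 2 UMIs. Pou4f1, a factor of sensory and dorsal neurons, had 6.93 and 23.9 CPM, a log2 ratio of -2.84 between high and -0.36 between low members.

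**Figure D5:**
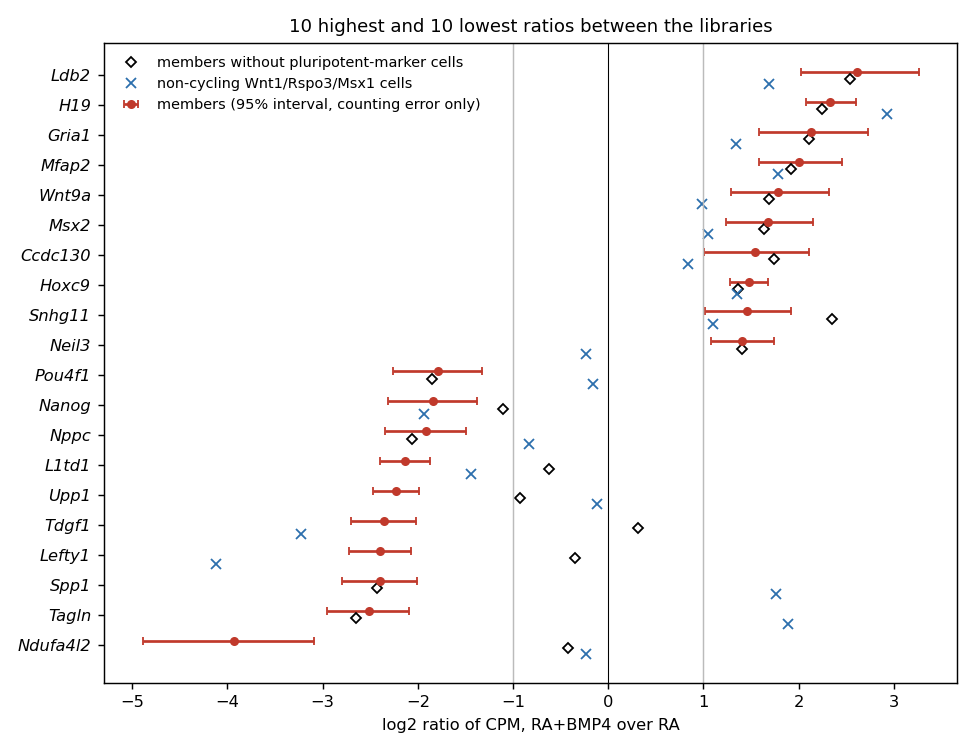
Log2 ratio of CPM, RA+BMP4 over RA, for the 10 genes with the highest and the 10 with the lowest ratios in members (red, bars are 95% intervals of counting error), beside the ratio without pluripotent-marker cells (diamonds) and in non-cycling Wnt1/Rspo3/Msx1 cells (crosses). The diamonds of Tdgf1, Lefty1, L1td1, Upp1 and Ndufa4l2 lie between -1 and 1, while those of Ldb2, H19 and Tagln stay near the red points.

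Against cycling Olig3 cells of the same libraries, the counts turned on the pluripotent-marker cells. Such cells made up 42 of 339 cycling Olig3 cells with 26.8% of their UMIs in RA+BMP4, and 95 of 180 with 70.9% in RA. With them, 29 of 6623 genes were past the fold higher in members in both libraries (0.438%) and 89 lower (1.34%), and without them 0 (0%) and 37 (0.56%) of 6602, of which 0 and 5 were shared with the first counts. Of the 10 neuron markers compared without them, 3 passed the fold lower in both libraries and none higher, with median log2 ratios of -1.08 in RA+BMP4 and -0.49 in RA. The lowest gene was Olig3, which the rule used. Neurog2, which starts neurogenesis, had 1.17 CPM in RA+BMP4 members against 41.0 CPM in cycling Olig3 cells, and 0.50 against 42.4 CPM in RA. Neurod4 had 2.68 against 39.8 CPM and 1.00 against 36.0 CPM, and Gadd45g, a brake on division in newborn neurons, 23.9 against 151 CPM and 13.5 against 126 CPM. Nhlh1, Ebf2, Neurog1, Pcdh8, Srrm4 and Btbd17 made up the rest of the 10 lowest. With pluripotent-marker cells in, the 10 highest were Rspo1 (71.6 against 25.01 CPM in RA+BMP4, 78.4 against 27.0 CPM in RA), C1qtnf3, Cx3cl1, Bmp6, Dab2, Rspo3, Col5a1, Metrnl, Kcnn3 and Ncald, and none of these 10 passed the fold without them.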

How the data were processed

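Cells of 1 culture per condition were dissociated, freed of dead cells and captured, per the labels' protocols. The authors deposited raw UMI counts per gene and barcode for 31053 genes, 13121 barcodes with 115268932 UMIs in RA+BMP4 and 9704 with 122110565 in RA. The submitters' processing notes name CASAVA, Cell Ranger 3.0.2 and the build GRCm38. Settings of cell calling: not given in the sources used here. Members and lists were chosen with earlier results of these data known.

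Counts were summed over cells, scaled to CPM and compared as ratios, with fewer than 3 counts set to 3. A gene was past the fold at 20 CPM or more and a ratio of 2. Genes named were those of the lists, and the 10 highest and 10 lowest ratios of each comparison without predicted, mitochondrial and ribosomal genes. Intervals were exact: Clopper-Pearson for shares, Poisson for levels and conditional binomial for ratios. Scrublet in scanpy 1.11.5, with an expected rate of 8%, called doublets, which stayed in. Neurons were cells with at least 5 UMIs of Stmn2 and none of the cycle genes. Chromosomes came from GENCODE vM21 by gene ID. Chromosome shares used 6430 autosomal genes, 390 on chromosome 8 and 585 on chromosome 11. The values of some listed genes are left out of the text. The steps were tested on simulated data. Alternatives included TMM factors of edgeR 4.0.16.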

Additional observations from a re-analysis of the deposited data

Results flagged for a closer look

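Tagln, an actin-binding protein of smooth muscle and mesenchyme, had opposite directions in the libraries when members were set against cycling Olig3 cells, a difference that was not tested. Its log2 ratio was -2.09 in RA+BMP4, with 6.93 CPM in members against 29.4 CPM in cycling Olig3 cells, and 3.08 in RA, with 39.5 against 4.69 CPM. Without pluripotent-marker cells the ratios were -2.38 in RA+BMP4 (7.11 against 37.1 CPM) and 2.40 in RA (44.6 against 8.47 CPM). A single cell held 83.9% of the Tagln counts of the RA members.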

How the results depend on the processing

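No paired analysis was possible because each condition had 1 library. Depth, mitochondrial share and the chromosome 8 and 11 clouds differed between the libraries and cannot be told apart from BMP4 by this design, and the causes of the shifts below were not tested. All ratios are RA+BMP4 over RA.

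The ratio of member shares, 2.21, was above 1 under all 12 alternatives. It moved past its interval under a stricter cell filter of 2000 genes or more and 5% mitochondrial UMIs or less (1.84, with 53 RA members), in cells high for chromosomes 8 and 11 (3.18) or low for both (1.74), after thinning to 5000 UMIs (3.09), and with the minima at 5000 UMIs (4.71). The ratio of cycling shares, 0.632, was 0.488, 0.455, 0.756, 0.934 and 0.878 in the same order.

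The 52 genes higher between the libraries became 194, 8 and 560 at minimum levels of 5 CPM, 100 CPM and none, 124 with the stricter cell filter, 160 with the minima at 5000 UMIs, 149 between high members and 148 after thinning the members. The 49 lower genes became 175, 6 and 718 at the same minimum levels, 26 with the stricter filter, 31 without pluripotent-marker cells, 102 with the minima at 5000 UMIs and 25 between low members. Over non-cycling cells, the 306 higher genes became 468 at 5 CPM. The 14 lower genes became 52 at 5 CPM, 9 with median-of-ratios factors, 23 without called doublets, 29 between low cells and 26 against cells with no cycle UMI. Over cycling Olig3 cells, the 29 higher and 89 lower genes became 73 and 297 at 5 CPM, 9 and 59 with cells weighted equally, 0 and 37 without pluripotent-marker cells, and 1 and 39 between high or 1 and 28 between low cells.

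With the stricter filter the log2 ratios of Spp1 (1.75), Lefty1 (1.98), Tdgf1 (2.37), Upp1 (3.26), L1td1 (3.08), Nanog (1.18), Pou4f1 (0.016) and Hes5 (0.34) changed sign. Tdgf1 did so without pluripotent-marker cells (0.31). Between low members Ndufa4l2 (0.17), Tagln (1.21), Spp1 (1.00), Tdgf1 (0.58), L1td1 (0.58) and Nanog (0.17) did. Of 465 gene ratios recomputed 410 stayed on their side of 2-fold, and of 205 list medians 120 stayed within 0.1. TMM and median-of-ratios factors shifted all genes by -0.049 and -0.038.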

Other observations

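Further lists gave these values in members, RA+BMP4 over RA. Of 13 hypoxia and glycolysis genes compared none passed the fold and 9 were above 0, with a median log2 ratio of 0.33, which was 0.66 between members high for chromosomes 8 and 11 and 0.44 between members low for both, with 12 of 12 and 12 of 13 genes above 0. The glycolytic enzyme genes Ldha and Tpi1 had 688 and 547 CPM, and 548 and 399 CPM, in RA+BMP4 and RA. The p53 response list had a median of 0.09, with none of 8 genes past the fold. Within the libraries, however, 2 of its 8 compared genes were past the fold in members high for both chromosomes over members low for both. Of all genes compared, 36 of 6603 were (0.545%). Cdkn1a, a CDK inhibitor induced by p53, had 63.0 CPM in high members against 30.5 CPM in low members of RA+BMP4, and 94.5 against 34.1 CPM in RA. Ccng1, on chromosome 11, which the split itself used, had 149 against 72.4 CPM and 156 against 68.3 CPM. In non-cycling cells Cdkn1a was not higher in the high cells, at 43.1 against 48.1 CPM in RA+BMP4 and 18.7 against 37.8 CPM in RA. Ccng1 had 138 against 88.4 CPM in non-cycling cells of RA+BMP4 and 93.4 against 94.3 CPM in those of RA.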
